A study of Acyrthosiphon pisum with 15 samples.

Results

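Egg-laying sexual females of the pea aphid, Acyrthosiphon pisum, were compared with live-bearing wingless asexual females of the same clones. The comparison takes 6 of the 15 whole-body RNA libraries of the study, 3 of sexual females and 3 of wingless asexual females, and each morph was sampled once in clone F1, once in I18 and once in BK11. The other 9 libraries are winged asexual females, winged males and wingless males of the same clones. They place the female values below, enter the comparisons with males, and add to the spread and the filter behind every call of the female comparison. Each library was made from 30 adults, so differences among individuals were pooled before sequencing, and each clone is a single genotype represented once per morph. Sexual females were 2 to 6 days into adult life and had 13 h of light, 11 h of dark and 15 °C. Wingless asexual females were 2 days into adult life and had 16 h of light, 8 h of dark and 18 °C. Males were kept like the sexual females and winged asexual females like the wingless ones, all at 2 days of adult age. Morph, day length, temperature and age range therefore change together in this comparison and cannot be told apart.

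Aphids alternate between parthenogenesis and sex. In long days asexual females give birth to daughters that develop from unfertilised eggs inside the mother, and the embryos already carry developing embryos of their own. Shortening days bring a generation of males and of sexual females, whose ovaries make large yolk-filled eggs that are fertilised, given a shell and laid for the winter. RNA from a whole asexual female thus includes that of her embryos, and RNA from a sexual female that of maturing eggs. A lower level in such bulk samples can mean fewer cells of a kind or less RNA per cell, which cannot be told apart.

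Values are gene counts divided by a size factor of each library, called normalised counts here, for 20657 gene models, and they are not scaled for gene length. Sexual female libraries held 52222811 to 73961669 reads and wingless asexual ones 28721904 to 69726381. A count of 3 reads, the limit that a count of 0 allows, was worth 1.92 to 2.81 normalised counts in sexual females and 2.70 to 5.95 in wingless asexual females, counting error only. At 10 normalised counts or more, 13902 gene models were detected in the F1 sexual females, against 15138 and 15144 in the other sexual female libraries and 14842 to 15222 in the wingless asexual females. The gene models carry identifiers without names, apart from Syt4, so no marker of eggs, embryos or any tissue could be looked up to check the morph labels. Levels of RNAs that are high in other morphs could be measured with gene models chosen on winged asexual females and males alone, whatever the source of these RNAs. Of 24 gene models with a male mean of at least 10000 and a winged asexual mean of at most 10, 17 were at 0 in the F1 sexual females, and the median level was 0. In the I18 and BK11 sexual females none of the 24 was at 0, and the median stood at 0.124% and 0.102% of the male mean. The wingless asexual libraries had medians of 0, 0.00182% and 0 in F1, I18 and BK11.

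The morphs differed in about every second gene model that was tested. Of 20301 gene models, 5192 were higher in sexual females (25.6% of those tested) and 4533 were lower (22.3%), 47.9% together, by limma on log2(value + 1) with a Benjamini-Hochberg adjusted p threshold of 0.05. Higher gene models had a median log2 fold change of 2.17 and lower ones of −2.60, against 0.00 over all gene models tested. At least 8-fold changes made up 7.41% of tested gene models upward and 9.27% downward, and at least 32-fold changes 1.28% and 3.53%. Small changes were more common upward, where 44.5% of the higher gene models lay under 4-fold, against 33.2% of the lower ones. At 256-fold or more, 98 gene models were lower in sexual females (0.483% of those tested) and 39 higher (0.192%), while at 1024-fold or more 11 were lower and 19 higher. Values of the sexual females all lay above those of the wingless asexual females in 5053 of the 5192 higher gene models, and all lay below them in 4344 of the 4533 lower ones. Over all gene models tested, called or not, the groups failed to overlap upward in 28.9% and downward in 25.1%. The calls of limma were shared in the same direction by edgeR and DESeq2 for 4704 higher and 4294 lower gene models.

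**Figure D1:**
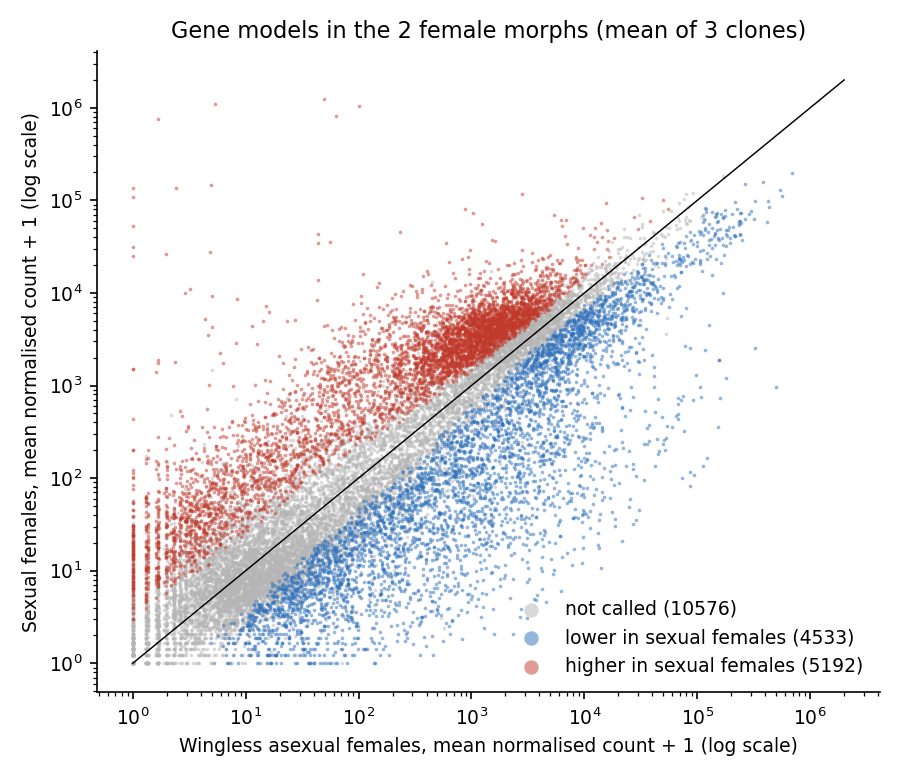
Mean normalised count + 1 of each of 20301 tested gene models in wingless asexual females (horizontal, log scale) and in sexual females (vertical, log scale), each over 3 clones, with the line of equal values. The 5192 higher gene models include a dense cloud between 1000 and 10000 on the vertical axis and 5 points at the top of the vertical axis that lie near or below 100 on the horizontal one, while the 4533 lower ones reach to the right end of the horizontal axis.

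Direction depended on how abundant a gene model was over all 15 libraries. Of the 696 gene models with a mean of at least 10000, 58.5% were lower in sexual females and 11.2% were higher. Of the 6180 with a mean from 1000 to 10000, 26.5% were lower and 41.1% were higher. This class held 2539 of the 5192 upward calls, more than any other abundance class, and their log2 fold changes were moderate, with a median of 1.62 and quartiles of 1.13 and 2.29. Below a mean of 100, where 8205 gene models lay, 13.8% were higher and 14.1% lower. Trimmed mean (TMM) scaling moved the median log2 fold change of all gene models by −0.07, and the upward share of the calls was 53.4% with the deposited scaling and 50.1% with trimmed means.

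A handful of very abundant gene models of sexual females were nearly absent from wingless asexual females. The 5 most abundant gene models of sexual females, ACYPI49688-RA, ACYPI49694-RA, ACYPI49696-RA, ACYPI49687-RA and ACYPI088619-RA, were picked out by that mean after their values were seen. Their joint share of the normalised counts was 4.63% in the F1, 14.0% in the I18 and 12.7% in the BK11 sexual females. In the wingless asexual females of F1, I18 and BK11 they held 0.000310%, 0.000233% and 0.000488%. The F1 sexual females thus had the lowest share of their group and still lay far above every wingless asexual library. ACYPI49688-RA stood at normalised counts of 450571 in F1, 1506086 in I18 and 1731572 in BK11 sexual females, and at 32.2, 55.6 and 58.4 in the wingless asexual females of the same clones. Its log2 fold change was 14.42 ± 2.27 (SE, n = 3 per group, limma adjusted p = 0.00014), and the groups did not overlap. This SE and those below rest on a spread pooled over all morphs in the fit, not over the compared morphs alone. ACYPI49694-RA stood at 380007, 1498680 and 1391387 in sexual and at 5.37, 3.97 and 3.59 in wingless asexual females, and the change was 17.42 ± 3.50 on the log2 scale (limma adjusted p = 0.00094). In both, F1 was the lowest of the sexual females. The identifiers of 4 of the 5 lie close together in number, and whether these models are similar in sequence and share reads was not tested.

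The 5 most abundant gene models of wingless asexual females were all lower in sexual females, by very different amounts. They held 4.57%, 4.48% and 4.02% of the normalised counts in the wingless asexual females of F1, I18 and BK11, and 0.883%, 1.29% and 1.14% in the sexual females of these clones. The wingless asexual mean chose these 5, so their fall follows in part from the choice and is given as a description. The highest of them, ACYPI008050-RA, picked after its values were seen, was at 752418, 645509 and 685498 in wingless asexual females and at 188650, 207954 and 200262 in sexual females. Its log2 fold change of −1.80 (limma adjusted p = 1.2e-07) lay near −1.88, the median of the lower gene models with a mean of at least 10000. Its 3 sexual female values lay close together. Also among the 5 was ACYPI007459-RA, with a much larger fall, at 555960, 499654 and 422957 in the wingless asexual females of F1, I18 and BK11 and at 843.9, 19.9 and 1993 in the sexual females. The log2 fold change was −10.55 ± 1.13 (limma adjusted p = 5.6e-06), and the clones of the sexual females differed among themselves by far more than those of the asexual females did. ACYPI066082-RA was at 240317, 225540 and 517031 in wingless asexual and at 989.1, 556.8 and 6118 in sexual females, and its log2 value changed by −7.66 ± 0.71 (limma adjusted p = 1.7e-06).

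For the lowest values in sexual females the library mattered. In all, 5 gene models had a winged asexual mean of at least 10000 and a male mean of at most 200, and all 5 were called lower in sexual than in wingless asexual females. The share called lower was 22.3% of all gene models tested and 58.5% of those with a mean of at least 10000 over all 15 libraries. The median level of the 5, as a share of the winged asexual mean, was 0.372% in the F1, 0.0220% in the I18 and 2.12% in the BK11 sexual females, and 0.191% to 0.715% in the males. In wingless asexual females it was 298%, 252% and 145%. The BK11 sexual females were the highest of their group for ACYPI007459-RA and ACYPI066082-RA too, and the part of asexual RNA in that library was not tested. Without the BK11 sexual female library 4756 gene models were higher and 4381 lower.

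The shift of single gene models added up to a different make-up of the normalised counts. Gene models called higher held 47.6%, 50.3% and 48.6% of the normalised counts in the sexual females of F1, I18 and BK11, against 7.54%, 9.19% and 8.45% in the wingless asexual females. Gene models called lower held 23.4%, 24.2% and 23.8% in sexual females and 71.8%, 69.6% and 69.6% in wingless asexual females. These shares follow in part from the choice of the gene models and are given as a description. The gene models outside both sets summed to 12126161 to 14144056 normalised counts in sexual and 12081353 to 13903028 in wingless asexual females. Libraries of the other morphs entered the calls only through the shared spread and the filter on low counts. There the gene models higher in sexual females held 13.1% to 18.1% in winged asexual females and 16.6% to 20.2% in males. Those lower in sexual females held 56.5% to 60.6% in winged asexual females and 40.2% to 48.0% in males.

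**Figure D2:**
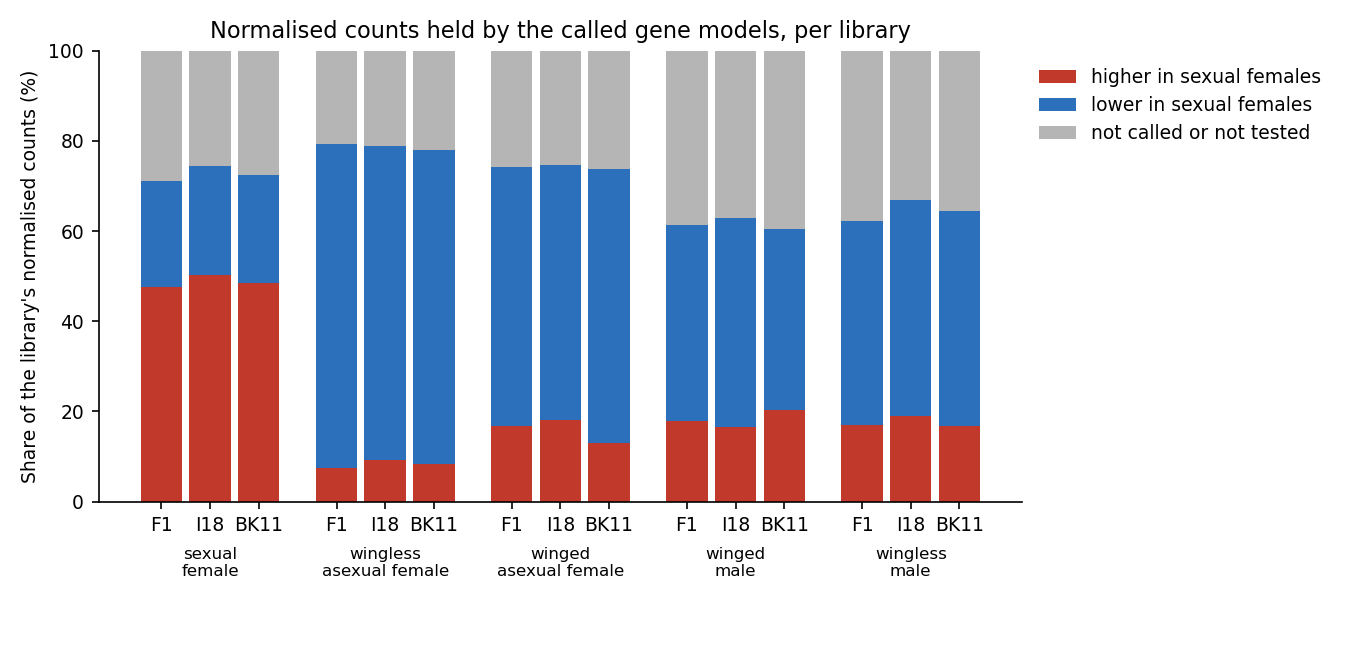
Share of the normalised counts of each of 15 libraries (vertical, in percent) held by the gene models called higher in sexual than in wingless asexual females (red), by those called lower (blue) and by all others (grey). Bars are single libraries, named by clone and grouped by morph. The red share is 47.6% to 50.3% in sexual females and at most 20.2% in any other library.

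The clones gave the same answer for nearly all called gene models, with differences in size. Calls were repeated without each clone in turn, and the direction was then read in the clone that had been left out. Of 3844 gene models called higher without F1 (19.9% of those tested), 95.3% were higher in F1 sexual than F1 wingless asexual females, where 47.0% of all gene models were. The figures for gene models called higher without I18 (21.9% of those tested) and without BK11 (21.0%) were 99.0% for each clone, against 50.1% of all gene models. Of those called lower without F1 (17.3% of those tested), I18 (19.9%) or BK11 (19.3%), 98.2%, 97.4% and 96.8% were lower in the clone left out, against 49.6%, 47.9% and 48.3% of all gene models. Falls were deepest in F1, where 3007 gene models were at least 8-fold lower in sexual females, against 1906 in I18 and 1589 in BK11. Rises of that size were similar in number, at 1864, 1869 and 1788 in that order of clones. These counts of single clones carry no test. The F1 sexual female library is also the one with the fewest reads of its group and the fewest gene models detected, and the part of depth in this difference was not tested. Across the 20301 gene models, which are not independent and share the libraries of a clone, the within-clone log2 ratios had Pearson correlations of 0.80 for F1 with I18, 0.78 for F1 with BK11 and 0.82 for I18 with BK11. In sexual females the median SD of log2 values over the clones was 0.63, against 0.49 in wingless asexual females.

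**Figure D3:**
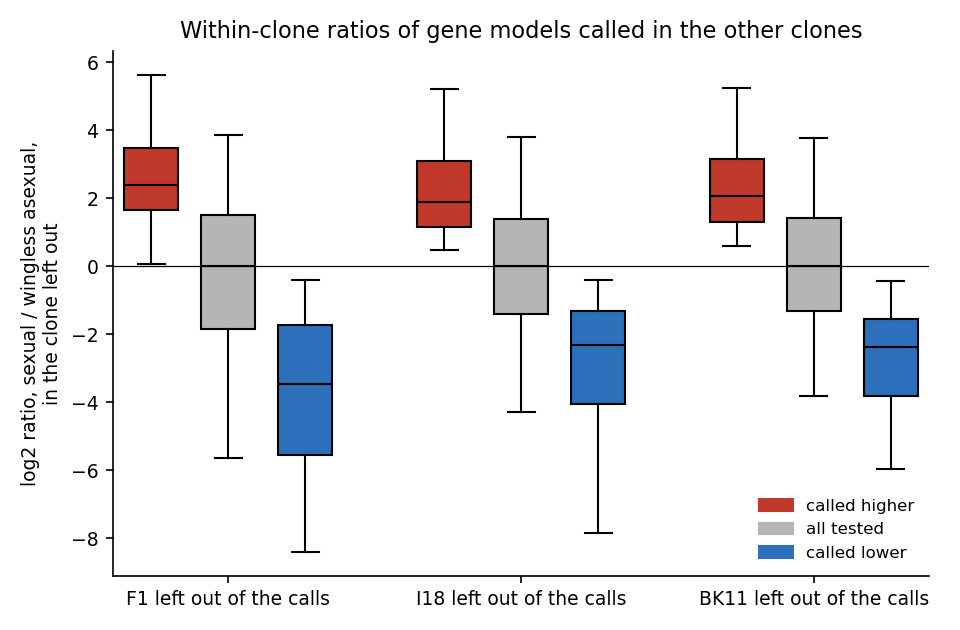
Within-clone log2 ratios of sexual to wingless asexual females (vertical) in the clone left out of the calls, for gene models called higher in the other clones (red), all tested (grey) and called lower (blue). Boxes give the quartiles and the median, whiskers the span from 5% to 95%. The median of the red boxes is 2.39 in F1, 1.89 in I18 and 2.06 in BK11, and that of the blue boxes is −3.46, −2.31 and −2.38.

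Complete absence in one morph was rare. Sexual females had 14 gene models with a mean of at least 100 that had 0 reads in all 3 wingless asexual libraries, with sexual female means up to 135911. The highest of these, ACYPI21967-RA, was at 95336, 235652 and 76744 in F1, I18 and BK11 sexual females, which is at least 34338-fold higher than a floor of 3 reads per wingless asexual library. Of the 14, 0 were at 0 in all 6 male libraries and 6 had a male mean of at least 100. In the opposite direction 2 gene models had 0 reads in all sexual female libraries and a mean of at least 100 in wingless asexual females, and the larger mean was 140. The BK11 sexual females held the 5 asexual gene models above at a median of 2.12% of the winged asexual mean. The I18 wingless asexual library had the fewest reads of the 6, at 28721904. The part of either in these counts was not tested. With a looser limit of under 10 in every library of one group and a mean of at least 1000 in the other, 28 gene models marked sexual females and 20 marked wingless asexual females.

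Winged asexual females share reproductive mode, day length and temperature with the wingless ones. Over all 20301 gene models tested, the winged asexual mean lay nearer to the wingless asexual than to the sexual female mean in 67.2%. Over the gene models called higher in sexual females, the median of log2 levels was 10.96 in sexual, 8.72 in wingless asexual and 9.28 in winged asexual females, and winged males stood at 8.93 and wingless males at 9.15. Over those called lower it was 6.03 in sexual, 9.86 in wingless asexual and 9.41 in winged asexual females, and 8.68 and 8.72 in winged and wingless males. Of the 5192 higher gene models, 79.0% had their highest mean of all 5 morphs in sexual females and 20.3% in a male morph. Of the 4533 lower ones, 61.1% had their highest mean in wingless asexual females, 11.5% in winged asexual females and 27.3% in a male morph. Since sexual and wingless asexual values chose these gene models, the shares are a description.

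A comparison in libraries outside the 6 asked which of these gene models also separate males from asexual females, where day length and temperature differ in the same way but sex differs as well. Winged males were set against winged asexual females in a fit of the 9 other libraries, so that no library of the female comparison entered. The female calls did draw on the spread of these 9 libraries, so the lists of calls are not independent. The part of this shared spread in their overlap was not tested. Of 19588 gene models, 4483 were higher in males (22.9%) and 3711 lower (18.9%, limma, adjusted p threshold 0.05), or 41.8% together. Wingless males set against the same winged asexual females gave 22.1% higher and 14.9% lower, 37% together. Of the gene models higher in sexual females, 1258 (25.3%) were also higher in males, close to the share of all gene models, and these are 28.1% of the male list. A further 1151 (23.2%) were lower in males, against 18.9% of all gene models. Of the gene models lower in sexual females, 1455 (32.6%) were also lower in males, above the 18.9% of all gene models, and these are 39.2% of the male list. Another 591 (13.2%) were higher in males, against 22.9% of all gene models. These counts moved with single libraries and clones. In the order given, they were 610, 90, 663 and 117 without clone F1, and without clone BK11 760, 574, 776 and 518. Without the F1 winged asexual females, those higher in sexual females and lower in males numbered 616 and the reverse 373, and the reverse was 379 without clone I18. Leaving out the F1, I18 or BK11 winged males brought those higher in sexual females and lower in males to 739, 708 and 761.

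Grouping the gene models by the size of the male difference showed a sharper pattern. Of the 260 gene models at least 32-fold lower in winged males than in winged asexual females, 80.0% were lower in sexual than in wingless asexual females and 5.38% were higher, against 22.3% and 25.6% of all gene models. Over these 260 the median of mean normalised counts was 2193 in wingless asexual and 1310 in winged asexual females, while sexual females stood at 48.4, winged males at 13.0 and wingless males at 105. RNAs that asexual females had and males nearly lacked were thus mostly low in sexual females as well. The number called lower, 208, was 103 without clone F1, 101 without clone BK11 and 136 without the BK11 winged asexual females. When single libraries or clones were left out, the share called lower lay between 66.0% and 83.1%. The share called higher then lay between 0.730%, without clone F1, and 15.1%, without the BK11 winged males. The shares were 72.4% lower and 17.7% higher without 4 libraries an earlier analysis of these data had doubted, the I18 wingless males and the BK11 winged males, wingless males and sexual females. In gene models lower in males by under 8-fold the directions were even, with 34.6% higher and 33.8% lower in sexual females.

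On the other side, 814 gene models were at least 32-fold higher in winged males than in winged asexual females. Of these, 26.0% were higher in sexual than in wingless asexual females, near the 25.6% of all gene models, and only 2.21% were lower, against 22.3%. When single libraries or clones were left out, the share called higher lay between 16.1%, without clone BK11, and 31.7%, without the F1 sexual females. Without clone BK11, 21.0% of all gene models were called higher. The share was 20.4% without the 4 doubted libraries and 18.3% with wingless in place of winged males. Most of the 814 were low in both female morphs, with a median mean of 5.77 in sexual and 1.38 in wingless asexual females. The part of these low levels in the share called lower was not tested. The 212 that were higher had a median of 25.8, 42.9 and 57.3 normalised counts in the F1, I18 and BK11 sexual females and of 1.07, 1.98 and 2.70 in the wingless asexual females, while winged males stood at 748, 553 and 733. Their sexual female mean was a median of 8.50% of the male mean, and 21 of the 212 lay under 1% of it. The sexual female values chose these 212, so their levels are a description. The 24 male gene models described above stood at medians of 0, 0.124% and 0.102% of the male mean in the F1, I18 and BK11 sexual females. Of these 24, 9 were called higher in sexual than in wingless asexual females and 0 lower, against 25.6% and 22.3% of all gene models. The part of male RNA in these values was not tested. These low counts depended on the log offset and tool, with 99 called higher at a pseudocount of 8 and 346 by DESeq2. The 18 called lower became 10 and 29 in these settings, 38 without the 4 doubted libraries, 42 without clone BK11, 12 without clone I18 and 30 without the BK11 winged asexual females.

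**Figure D4:**
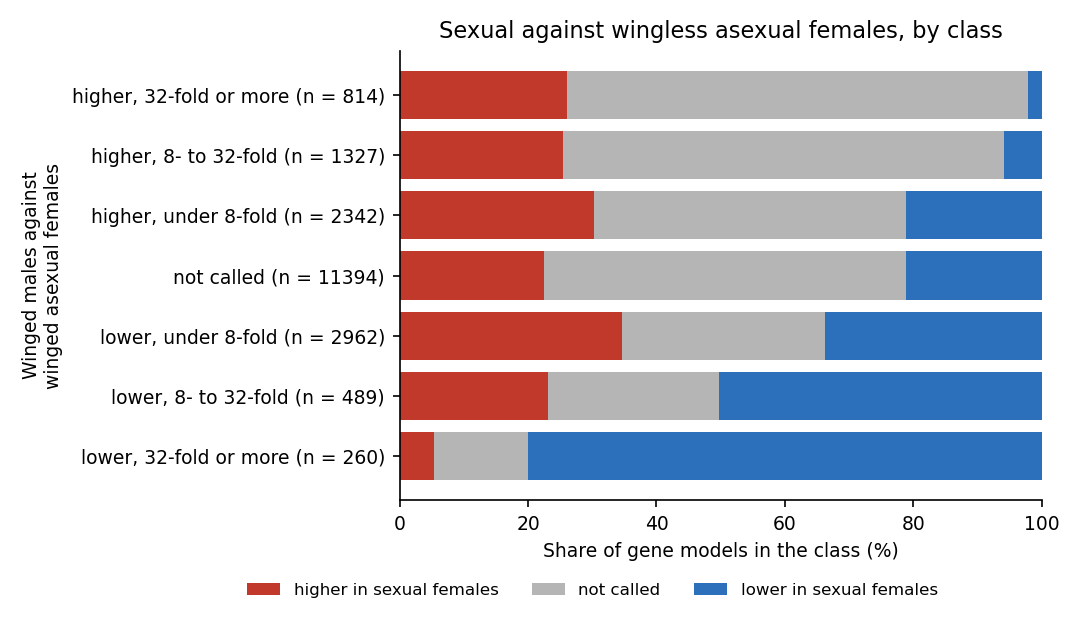
Gene models grouped by their difference between winged males and winged asexual females in the 9 other libraries (vertical, with the number in each class), and the share of each class called higher (red), not called (grey) or called lower (blue) in sexual against wingless asexual females (horizontal, in percent). Blue makes up 80.0% of the class at least 32-fold lower in males and 2.21% of the class at least 32-fold higher.

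Gene models that moved the same way in both comparisons were of different kinds. ACYPI071352-RA was low in sexual females and high in males. It stood at 45.9, 225.5 and 145.8 in the F1, I18 and BK11 sexual females and at 1.07, 0 and 0.899 in the wingless asexual ones, a rise of 6.20 ± 0.73 on the log2 scale (limma adjusted p = 1.2e-05). Winged males had 3876, 2631 and 799.0, against 1.63 to 2.15 in winged asexual females, a log2 difference of 9.49 ± 0.66 (limma adjusted p = 1.7e-05). ACYPI48808-RA was instead highest in sexual females, at 784.0, 19254 and 12746, and at 0, 3.97 and 2.70 in the wingless asexual ones (log2 difference 11.10 ± 1.30, limma adjusted p = 1.2e-05). It reached 152.6, 109.1 and 324.8 in winged males and at most 2.72 in winged asexual females (5.99 ± 1.17, limma adjusted p = 0.0036). Among those that fell in both, ACYPI007459-RA was at 82.5 to 159.0 in winged males and at 150457 to 199952 in winged asexual females (−10.70 ± 0.29, limma adjusted p = 1.2e-07), so males lay below the F1 and BK11 sexual females and above the I18 ones. ACYPI004638-RA was at 152.7, 1.92 and 2028 in the F1, I18 and BK11 sexual females and at 221340, 158767 and 92227 in the wingless asexual ones (−10.58 ± 2.06, limma adjusted p = 0.00075). Winged males had 8.15 to 21.3 of it and winged asexual females 50408 to 70568 (−12.14 ± 1.71, limma adjusted p = 0.00069).

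Whether the female comparison and the male one differ was tested directly as a difference of log2 differences, sexual minus wingless asexual females less winged males minus winged asexual females, over all 15 libraries. It was positive for 4349 gene models (21.4% of those tested) and negative for 4752 (23.4%, limma, adjusted p threshold 0.05), 44.8% in all. The negative calls fell to 2738 without clone F1 and 3159 without clone I18. Of the 5192 gene models higher in sexual females, 3350 had a positive and 180 a negative difference, and of the 4533 lower ones, 2644 had a negative and 107 a positive difference. The same libraries chose the gene models and enter the difference, so these numbers are a description. The largest positive differences belonged to RNAs of sexual females. ACYPI088619-RA, at 675603, 1099309 and 478822 in F1, I18 and BK11 sexual females and at 0, 1.98 and 0 in wingless asexual females, had a difference of 17.81 ± 5.22 (limma adjusted p = 0.013). ACYPI21967-RA, whose sexual female values are given above, had one of 16.02 ± 4.28 (limma adjusted p = 0.0077). Both were present in the I18 winged asexual females, at 1897 and 372.8, and in the BK11 winged males, at 7999 and 2193, and at or near 0 in the remaining libraries of these morphs. The part of sexual female RNA in these 2 libraries was not tested. Leaving out any clone kept 2 libraries per morph, and the result depended on which clone it was. Omitting F1 brought the limma adjusted p to 0.10 for ACYPI088619-RA and 0.081 for ACYPI21967-RA. Omitting I18 brought it to 0.15 and 0.125. Omitting BK11 instead gave 0.0027 and 0.0019, with larger differences of 23.76 and 21.47. The reason for this dependence was not tested.

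The largest negative differences belonged to male RNAs with no call between the female morphs. ACYPI001191-RA was at 255546, 181424 and 442251 in winged males and at 0, 0 and 0.544 in winged asexual females, with a difference of −15.75 ± 2.62 (limma adjusted p = 0.00032). Sexual females had 1.87, 459.4 and 341.7 of it in F1, I18 and BK11 and wingless asexual females 19.3, 279.8 and 0, so the groups overlapped (log2 fold change 2.10 ± 1.85, limma adjusted p = 0.39). ACYPI002387-RA was at 51327, 54593 and 109393 in winged males, at 0, 95.5 and 67.0 in sexual females and at 0, 85.3 and 12.6 in wingless asexual females. Its difference was −15.00 ± 2.23 (limma adjusted p = 0.00015), and it too had no call between the female morphs (0.83 ± 1.58, limma adjusted p = 0.71).

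Syt4 (ACYPI009209-RA) was the only gene model whose identifier could be paired with a symbol. Synaptotagmins are membrane proteins of vesicles that bind calcium and act in secretion, and synaptotagmin 4 is best known from nerve and muscle of Drosophila. Syt4 was at 8556, 7528 and 5875 in F1, I18 and BK11 sexual females and at 964.3, 1411 and 688.4 in wingless asexual females. Every sexual female value lay above every wingless asexual one, and each clone showed the rise, with log2 ratios of 3.15, 2.41 and 3.09. Winged asexual females were between the groups, at 3379, 3521 and 1819, and winged males were at 10860, 6256 and 7292. The difference between winged males and winged asexual females was 1.51 ± 0.34 on the log2 scale (limma adjusted p = 0.0071), and the female difference of 2.88 ± 0.34 exceeded it by 1.38 ± 0.48 (limma adjusted p = 0.031).

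**Figure D5:**
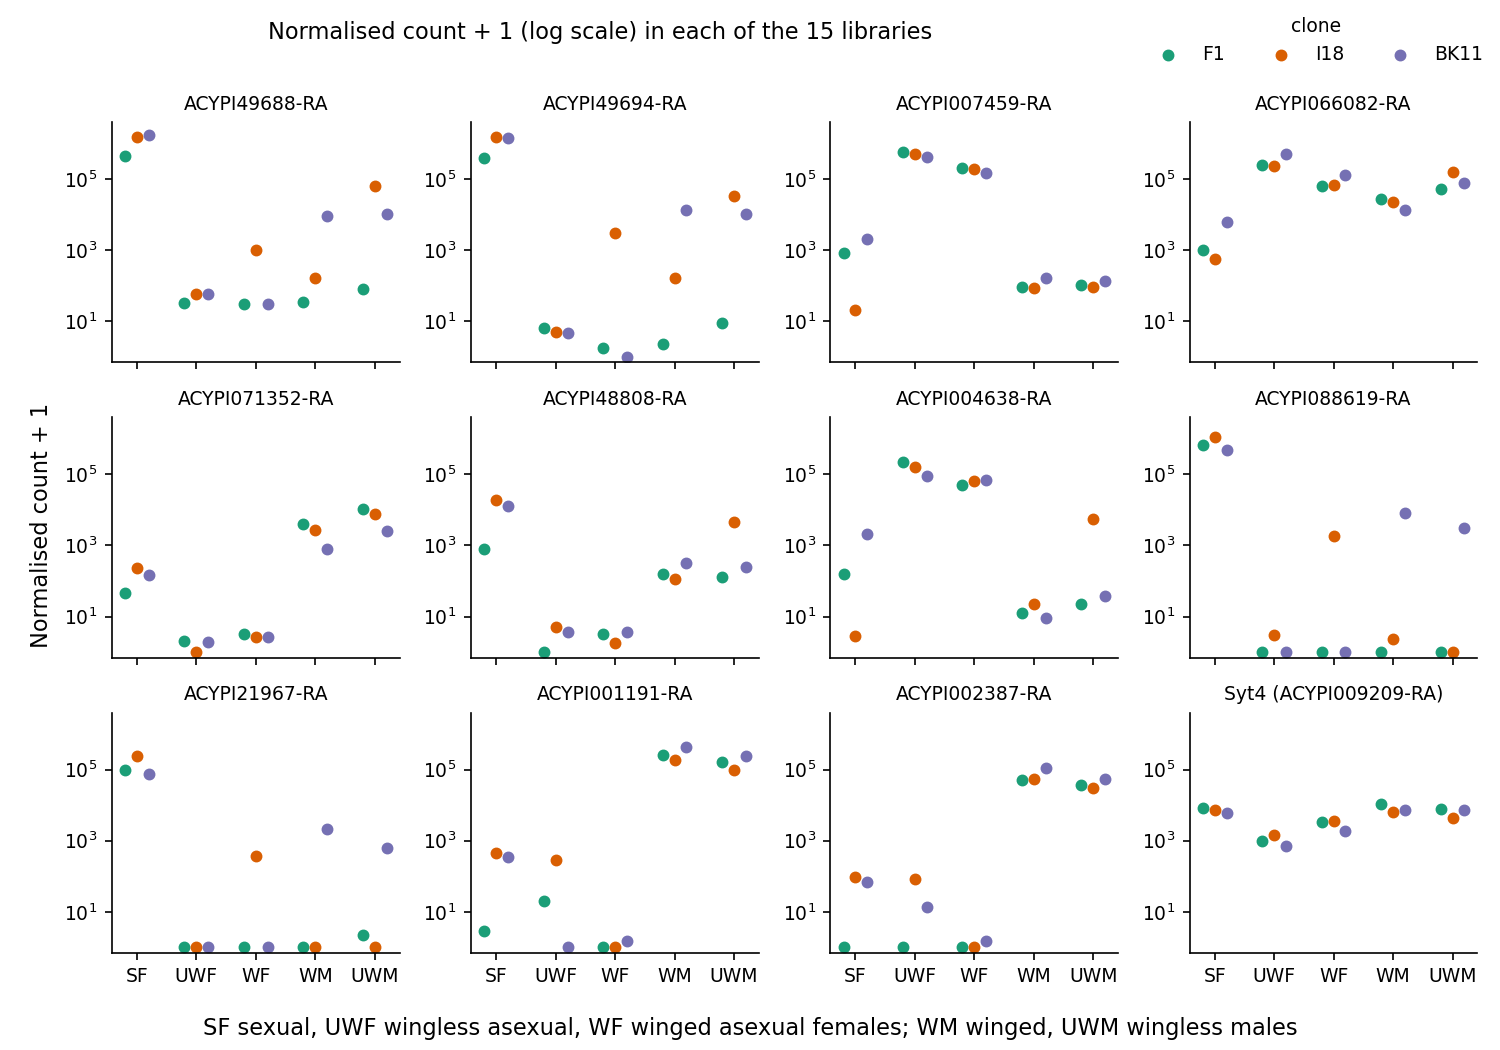
Normalised count + 1 (vertical, log scale) of 12 gene models in each of 15 libraries, by morph (horizontal) and clone (colour). SF are sexual, UWF wingless asexual and WF winged asexual females, WM winged and UWM wingless males, and each point is a library. ACYPI49688-RA and ACYPI49694-RA lie highest in sexual females, ACYPI007459-RA and ACYPI004638-RA in both asexual morphs, and ACYPI001191-RA and ACYPI002387-RA in males, while Syt4 spans 688.4 to 10860 over all morphs.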

How the data were processed

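Whole-body RNA-seq libraries of 5 morphs in 3 clones were analysed. The authors deposited normalised signal, meaning read counts over a library size factor. The submitters' processing notes name DESeq2. The sources used here give no aligner, counting tool, strand setting, genome build or annotation. In every library 100% of values were whole multiples of the value of 1 read within 0.001 of a read, so the authors' read counts were recovered.

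Tests used limma 3.58.1 under R 4.3.3 on log2(value + 1) (mean-dependent prior variance, two-sided, 10 residual degrees of freedom), in 1 fit of all 15 libraries with 5 morph means, for gene models with at least 10 in at least 3 libraries. That kept 20301 and left out 356. Fold changes understate low genes. Adjusted p-values follow Benjamini and Hochberg. On the recovered reads, edgeR 4.0.16 called 4881 gene models higher and 4645 lower and DESeq2 1.42.0 5640 and 4871. The code was tested on simulated data. Replicates are clones, so p-values measure the spread among clones and preparations together, pooled over all morphs in a fit. Clone was not a block in the main fit. With only the 6 libraries compared, the limma adjusted p of ACYPI49688-RA was 2.2e-05, against 0.00014 in the main fit. For ACYPI007459-RA it was 0.00096, against 5.6e-06.

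Samples pair by clone, since each clone is a single line: deviations of sexual and wingless asexual libraries from their morph means correlated within clones at 0.42 (F1), 0.31 (I18) and 0.39 (BK11). The RefSeq gene table of assembly pea_aphid_22Mar2018_4r6ur_v2, used for names alone, held 61 of the 20657 identifiers, 1 of them with a symbol. Role lists planned by product name were therefore not run.

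Named gene models are, in each direction, the 2 with the highest mean in the higher group among those called by all 3 tools with a log2 fold change of at least 3 and no overlap, the 2 with the largest smaller change among those called alike in both comparisons, and the 2 with the largest difference of differences, the latter 2 kinds at a mean of at least 100. Other gene models named were picked after their values were seen. Members, lists and alternatives were chosen with earlier results of these data known.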

Additional observations from a re-analysis of the deposited data

How the results depend on the processing

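The counts of gene models higher and lower in sexual females stayed within 1.5 times under all 21 alternatives. They were 4837 and 4820 with trimmed means, 5520 and 4935 with clone as a replicate block, 4896 and 4386 with that block and only the 6 libraries compared, and 4666 and 4268 without the 4 doubted libraries. Leaving out 1 library or clone gave 3844 to 4861 higher and 3334 to 4381 lower, and the block changed no call of a named gene model. Against winged males the same omissions gave 610 to 1393 higher in both, 663 to 1501 lower in both, 90 to 1211 higher in sexual females and lower in males, 117 to 723 the reverse, and 2738 to 4997 negative differences of differences (3159 without clone I18). The first 4 were 760, 776, 574 and 518 without clone BK11, and the third and next were 616 and 373 without the F1 winged asexual females, with 379 for the latter without clone I18. With wingless in place of winged males the third of these was 640. Of gene models at least 32-fold lower in males, 101 to 206 were called lower in sexual females on omission (103 without clone F1, 136 without the BK11 winged asexual females), and 97 with wingless males. Of those at least 32-fold higher, 12 to 42 were called lower on omission (13 without the F1 winged males, 30 without the BK11 winged asexual females), 10 at a pseudocount of 8, 29 with DESeq2 and 38 without the 4 doubted libraries, and 99 and 346 were called higher at a pseudocount of 8 and with DESeq2. A pseudocount of 8 shrinks low values by construction, and other causes were not tested. Leaving out the 4 doubted libraries was chosen after seeing the data, except for the first 2 counts. Depth limits gene models near 3 reads.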

Other observations

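RNAs of sexual females were also found in a few libraries of other morphs. Over 12 gene models with a sexual female mean of at least 10000 and under 10 in every wingless asexual library, the median level was 0.219% of the sexual female mean in the I18 winged asexual females, 1.21% in the BK11 winged males and 0.410% in the BK11 wingless males. It was at most 0.00145% in each of the other 6 libraries of these morphs. The I18 wingless males had 62649 of ACYPI49688-RA and 33845 of ACYPI49694-RA but 0 of ACYPI088619-RA and ACYPI21967-RA, whereas all 4 were present in the BK11 winged males.

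Few gene models answered to the morph in opposite ways in different clones. Of the 20301 tested, 36 were at least 8-fold higher in sexual females in 1 clone and at least 8-fold lower in another, and 0 of these were called by limma in either direction.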
